A study of Mus musculus with 2 samples.

Results

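γδ T cells are the T cells that carry a receptor of a gamma and a delta chain in place of the alpha and beta chains. In the non-ablated tumor of each group they were selected on measured UMIs, as the barcodes with at least 2 Cd3d, Cd3e and Cd3g UMIs in sum, at least 2 UMIs of Trdc and Cd163l1 in sum, no UMI of Cd4, Cd8a or Cd8b1 and fewer than 10 UMIs of C1qa, C1qb and C1qc in sum. UMIs are unique molecular identifiers, which count the captured RNA molecules. Of the kept barcodes, 83 of 10037 met the rule after MWA alone and 69 of 9913 after MWA plus TIGIT, 152 of 19950 in all. Trdc, the delta constant region, lies on chr14:54142851-54148868 and Cd163l1, the scavenger receptor also called SCART1, on chr7:140218267-140231145 (GRCm38).

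MC38 colon cancer cells were grown in both flanks of C57BL/6 mice, and the right tumor was treated by microwave ablation (MWA) at about 300 mm3. The MWA group received MWA with an isotype control antibody, and the MWA plus TIGIT group, called the combination group from here on, received MWA and anti-TIGIT antibody, 3 injections every 3 days from day 1 after MWA per the labels. All CD45+ cells of the left tumor, which was not ablated itself, were sorted on day 8 after MWA and sequenced with a droplet method that reads the 3′ end of transcripts. All mice thus carried the same tumor line and an ablated tumor on the other flank, and no sample without MWA was used here. There was 1 library per group, and the number of mice behind each is not given in the sources used here, so no test between the groups was possible. All intervals are 95% intervals that cover counting error only, not the variation between mice or libraries. Those of summed UMIs and their ratios do not cover the variation between cells either.

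In mice, γδ T cells leave the thymus with much of their effector program set. One branch makes interleukin-17, responds to IL-23 and IL-1, and is rich in cells whose receptor uses the Vγ6 segment with the Vδ1 segment (Trdv4). The other branch carries CD27 and NK receptors, makes interferon-γ and granzymes under T-bet and Eomes, and uses mainly the Vγ1 and Vγ4 segments. In tumors the first branch is best known for promoting growth through neutrophils and the second for killing tumor cells.

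The gamma segments on which the later values turn differ clearly in sequence. The first 300 bases of the coding part of the variable exon, exon 2 of each gene, are shown. They are read 5′ to 3′ on the plus strand of GRCm38 from the GENCODE transcripts. The codons of the conserved Tyr-Tyr-Cys near the end of the segment are in capitals.
Tcrg-V6, chr13:19190621-19190920: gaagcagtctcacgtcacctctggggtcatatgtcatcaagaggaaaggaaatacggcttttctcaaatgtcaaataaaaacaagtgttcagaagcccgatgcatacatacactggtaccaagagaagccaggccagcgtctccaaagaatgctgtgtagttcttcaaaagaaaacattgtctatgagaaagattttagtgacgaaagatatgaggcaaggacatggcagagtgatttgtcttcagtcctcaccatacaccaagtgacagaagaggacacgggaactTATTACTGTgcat
Tcrg-V4, chr13:19185200-19185499: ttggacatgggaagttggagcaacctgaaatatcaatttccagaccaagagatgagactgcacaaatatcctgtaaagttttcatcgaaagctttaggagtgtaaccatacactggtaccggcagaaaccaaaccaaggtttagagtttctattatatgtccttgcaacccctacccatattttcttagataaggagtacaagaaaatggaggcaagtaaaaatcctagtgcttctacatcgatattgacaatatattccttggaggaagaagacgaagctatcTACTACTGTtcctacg
Tcrg-V1, chr13:19340151-19340450: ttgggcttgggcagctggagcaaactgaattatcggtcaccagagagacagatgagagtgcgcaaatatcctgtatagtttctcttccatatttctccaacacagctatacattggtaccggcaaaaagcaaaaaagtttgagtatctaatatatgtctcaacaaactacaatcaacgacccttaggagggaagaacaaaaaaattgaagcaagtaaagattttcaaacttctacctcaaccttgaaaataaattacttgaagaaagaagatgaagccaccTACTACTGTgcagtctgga
Over these 300 bases Tcrg-V6 shared 52% of positions with Tcrg-V4 and 46% with Tcrg-V1, and Tcrg-V4 shared 69% with Tcrg-V1. The constant regions are much closer to each other. The transcripts of Tcrg-C1 and Tcrg-C2 were 95.5% identical with a longest shared run of 104 bases, so reads from them may be split uncertainly, whereas Tcrg-C1 and Tcrg-C4 shared 67.3%.

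The label held against a measure the rule did not use. A UMI of any Tcrg-C gene, the gamma constant regions, was found in 83.1% of the members in the MWA group and in 78.3% in the combination group. The shares were 2.19% and 2.28% in conventional CD4+ T cells, 14.2% and 10.2% in CD8+ T cells, 9.35% and 10.0% in NK cells, and 0.551% and 0.236% in C1q+ macrophages. Macrophages should lack these genes and had the highest depth, with a median of 8595.5 and 10544 UMIs against 3571 and 3446 in the γδ T cells. In contrast, Trac, the alpha constant region, was found in 27.7% and 18.8% of the members and in 79.8% and 88.3% of CD4+ T cells. The beta constant regions Trbc1 and Trbc2 were not 2-fold lower than in CD4+ T cells in both libraries. A UMI of any of these 3 genes was found in 97.6% and 94.2% of members and 98.8% and 99.3% of CD4+ T cells. Of the NK cells, 22.4% and 11.25% had a UMI of the γδ T cell markers Trdc, Tcrg-C1 or Cd163l1. Of the members, 79 and 64 had at least 2 Trdc UMIs, 27 and 20 had at least 2 Cd163l1 UMIs, and 1 in each library had no Trdc UMI. The limit of 2 UMIs cut through a continuous range. Just inside it, with 2 UMIs, were 12 and 11 members, of which 58.3% and 36.4% had a Tcrg-C UMI. Just outside, with 1 UMI, were 16 and 22 cells, of which 50% and 50% had one. A further 19 and 15 cells were left out only by a Cd8a or Cd8b1 UMI and 7 and 4 only by a Cd4 UMI, so CD8α+ γδ T cells are not among the members.

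A few barcodes stood apart. The 2 libraries shared 37 barcode sequences, 1 of them a member in the MWA group, and 1 member per library was called as a doublet. In the combination group 2 members had 98 and 25 UMIs of Lyz2, a lysozyme of macrophages and monocytes, while no other member exceeded 9, and none in the MWA group exceeded 7. The first held 11587 UMIs, the most of any member of that library, with 3 Cd3 and 2 Trdc UMIs. The summed level of the 6 macrophage markers was 1136 CPM (UMIs per 1000000 summed UMIs) in the MWA group and 1809 CPM in the combination group, and 1354 CPM without these 2 members. Summed UMIs of the dendritic cell markers were 2 and 0, and those of the neutrophil markers 2 and 3. In the MWA group 1 member held 55 of the 87 UMIs of H2-Aa, an MHC class II gene, and the next member 5. The highest member of the combination group held 7 of 23. Each result that rests on the 2 Lyz2-rich members is given with and without them.

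γδ T cells made up 0.827% (0.659 to 1.02) of kept cells in the MWA group and 0.696% (0.542 to 0.880) in the combination group. The difference of −0.131 percentage points (−0.381 to 0.118) did not exceed counting error. Among all T cells with at least 2 Cd3 UMIs the shares were 2.04% (1.63 to 2.52) and 1.80% (1.41 to 2.28), a difference of −0.236 points (−0.862 to 0.392). Without barcodes over 5000 UMIs the shares were 1.34% and 1.48%, with the opposite sign of the difference.

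The members were divided by 2 sets of genes. The type 17 set was 5 genes, among them Il23r (the IL-23 receptor), Cd163l1, Blk and Sox13, and the type 1 set was Tbx21, Eomes, Nkg7, Klrd1, Klrk1 and Cd27. A member belonged to the side with the larger sum if that sum was at least 2 UMIs. The type 17 side held 36 members (43.4%, 32.5 to 54.7) in the MWA group and 22 (31.9%, 21.2 to 44.2) in the combination group, a difference of −11.5 points (−27.1 to 4.93). The type 1 side held 41 (49.4%) and 42 (60.9%), a difference of 11.5 points (−5.31 to 27.5). Both differences lay within counting error, and 6 and 5 members were unresolved. Without barcodes over 5000 UMIs the type 17 side held 57.6% and 33.9%, and the difference of −23.7 points (−41.3 to −4.29) exceeded counting error. That limit lay below the median depth of the type 1 side in the MWA group (5503 UMIs) and above that in the combination group (3625.5). It thus removed type 1 members unevenly. Without members that held a Trac UMI the type 17 side held 38.3% and 33.9%, a difference of −4.40 points (−22.5 to 14.1). As a share of kept cells, the type 17 side was 0.359% and 0.222%, and the type 1 side 0.408% and 0.424%.

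The sets excluded each other in most members. Over all members, unresolved ones included, UMIs of the type 17 set alone were found in 27 and 15, of the type 1 set alone in 43 and 44, of both in 12 and 9 and of neither in 1 and 1. In 9 and 5 members the sums lay within 1 UMI of each other. One member of the MWA group on the type 1 side held 8 UMIs of the first set, 13 of the second and 17 of Il17a. Depth differed between the sides: the median was 2990.5 and 3752.5 UMIs on the type 17 side and 5503 and 3625.5 on the type 1 side. The type 17 side rested largely on Cd163l1, and without it in the set the side held 19.3% and 14.5% of the members.

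**Figure D1:**
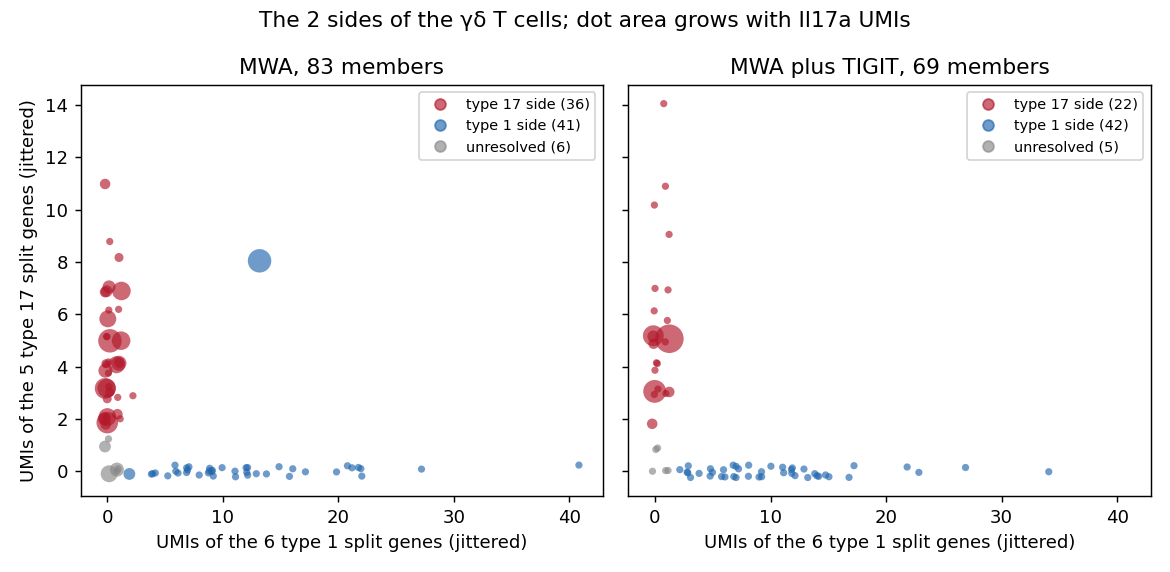
Each dot is 1 γδ T cell, with the summed UMIs of the 6 type 1 genes on the x axis and of the 5 type 17 genes on the y axis, jittered, in the MWA group (left) and the combination group (right). Dots lie along the 2 axes, dot area grows with Il17a UMIs, and the single large blue dot is the MWA member with 8, 13 and 17 UMIs of the type 17 set, the type 1 set and Il17a.

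The receptor segments followed the division, which used no segment but rested largely on Cd163l1. Tcrg-V6 was found in 13 of 36 and 14 of 22 members of the type 17 side and in 1 of 41 and 1 of 42 of the type 1 side. Trdv4 was found in 29 of 36 and 19 of 22 members of the type 17 side and in 6 of 41 and 2 of 42 of the type 1 side. So both segments of the Vγ6Vδ1 receptor were common on the first side and rare on the second in both libraries. Tcrg-C1, the constant region that lies next to Tcrg-V6 and Tcrg-V4, was found in 30 of 36 and 20 of 22 against 17 of 41 and 17 of 42. Of the 16 and 15 members with a Tcrg-V6 UMI, 13 and 12 also had Trdv4 and 15 and 14 had Tcrg-C1. Cd163l1, a gene of the selection and of the dividing set, was found in 12 and 14 of these members with Tcrg-V6. The segment shares were not counted with Cd163l1 left out of the set, so they are not independent of it. None of the members with Tcrg-V6 had Tcrg-V4, and 0 and 1 had Tcrg-V1.

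On the type 1 side other segments were found. Tcrg-V1 was absent from the type 17 side and present in 10 of 41 and 4 of 42 members of the type 1 side. Tcrg-V4 was found in 5 of 41 and 8 of 42, against 1 of 36 and 0 of 22 on the type 17 side. Among the delta segments, Trdv2-2 was found in 1 of 41 and 7 of 42 and Trdv5 in 0 and 4 of 42, and neither on the type 17 side. Tcrg-C2 and Tcrg-C4 were found on both sides, Tcrg-C2 in 12 of 36 and 8 of 22 against 19 of 41 and 17 of 42, and Tcrg-C4 in 17 of 36 and 9 of 22 against 21 of 41 and 14 of 42. Tcrg-C3, Tcrg-V7, Trdv3 and Trdv2-1 were not found in any member.

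Most members showed no gamma segment of these names, since 52 and 44 had no Tcrg-V UMI. A segment listed as Trgv2, added after its values were seen, was found in 38 of 83 and 34 of 69 members, and with it 27 and 22 members had none. Trgv2 was found on both sides, in 10 of 36 and 12 of 22 members of the type 17 side and 25 of 41 and 21 of 42 of the type 1 side. Of the 16 and 15 members with a Tcrg-V6 UMI, 4 and 6 also had Trgv2. Trgv2 was also found in 12.5% and 9.92% of CD8+ T cells, so it does not mark γδ T cells alone. Background was low for Tcrg-V6, with no UMI in 3808 and 4241 macrophages, and for Trdv4, with 4 and 1 macrophages. NK cells had no Tcrg-V6 UMI but held Trdv4 in 13.1% and 22.5% of cells.

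**Figure D2:**
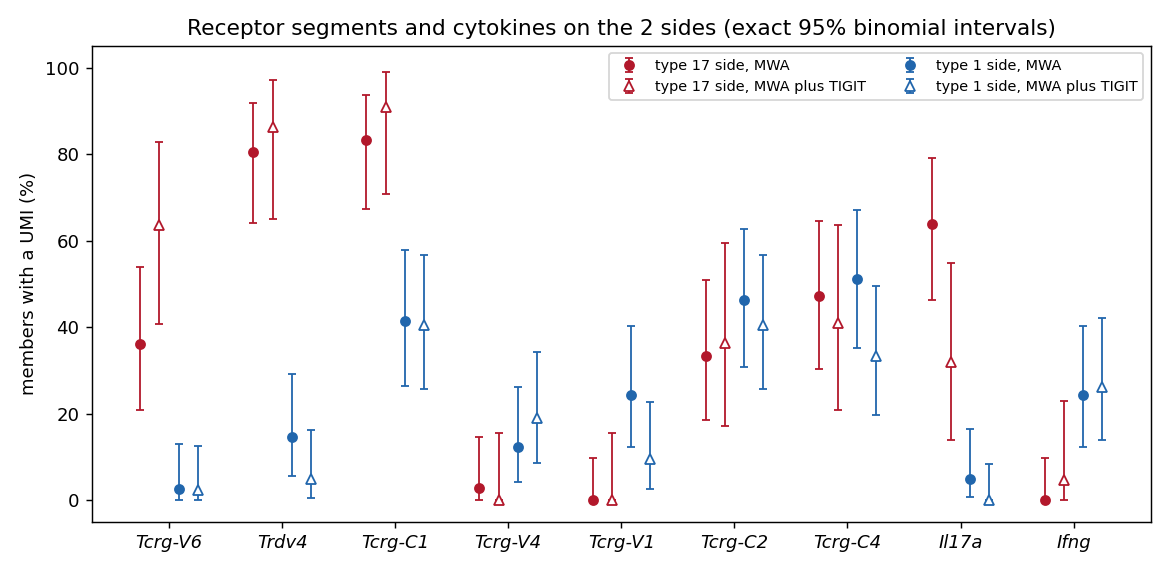
The share of members with a UMI (y axis, %) of 7 receptor segments or constant regions, Il17a and Ifng on the type 17 side (red) and the type 1 side (blue) in the MWA group (filled circles) and the combination group (open triangles), with exact 95% binomial intervals. Tcrg-V6, Trdv4 and Tcrg-C1 were higher on the type 17 side in both libraries, and Tcrg-V1 was found on the type 1 side.

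The type 17 and type 1 sides differed in many genes beyond those that divided them. In both libraries, 8.01% of 3245 genes were at least 2-fold higher and 3.14% at least 2-fold lower on the type 17 side, with medians over all genes of 0.28 and 0.22 on the log2 scale. The balance turned with the scaling, from 260 higher and 102 lower to 163 higher and 172 lower with TMM factors. Since the sides were cut from the same cells, these values describe the division and are no test of it. Of the 19 measured genes of the type 17 program outside the dividing set, 16 were higher and none lower in both libraries. Of 18 of the type 1 program, none were higher and 13 lower. The median log2 ratios were 3.38 and 3.38 for the first list and −2.33 and −2.22 for the second.

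Transcription factors came first among the type 17 side's genes. Maf, a factor that IL-17-producing γδ T cells need, stood at 493 and 653 CPM against 43.0 and 61.0 CPM on the type 1 side, which on the log2 scale was higher by 3.52 (2.53 to 4.66) and 3.42 (2.43 to 4.56). Rora, a nuclear receptor of this program, had log2 ratios of 3.68 (2.43 to 5.22) and 2.22 (1.32 to 3.20). Bcl11b, Tox, Runx1 and Hif1a were also higher, so 6 of 18 factors measured were higher and none lower.

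Receptors for survival and inflammatory cytokines were higher too. Il7r, the IL-7 receptor that sustains these cells, stood at 825 and 1152 CPM against 90.4 and 140 CPM. Il1r1, the receptor for IL-1, had 12 and 12 UMIs on the type 17 side and none on the type 1 side, at least 3.06 and 2.96 higher on the log2 scale against a floor of 3 counts. Il18r1 had log2 ratios of 2.02 and 2.22. With Il2ra and Ifngr2, 5 of 16 cytokine receptors were higher and none lower.

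Homing receptors showed the same pattern, with 5 of 10 higher and none lower. Ccr2, which guides cells into inflamed tissue, stood at 376 and 463 CPM against 17.2 and 24.4 CPM, and Cxcr6, the receptor for CXCL16, at 645 and 902 CPM against 68.9 and 91.5 CPM. S1pr1, which guides exit from tissue, had log2 ratios of 1.45 (0.32 to 2.61) and 1.55 (0.30 to 2.86). Gpr183 and Ltb4r1, receptors for an oxysterol and leukotriene B4, completed the group. The macrophages of these tumors held many Ccr2 UMIs as well, with a UMI in 57.5% and 57.5% of them, but Cxcr6 in only 0.473% and 0.472%.

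Among inhibitory and costimulatory receptors, 3 of 10 were higher on the type 17 side and 2 lower. Icos, a costimulatory receptor, stood at 466 and 427 CPM against 34.4 and 67.1 CPM. Pdcd1, which encodes PD-1, was found in 7 of 36 and 8 of 22 members of the type 17 side and in 2 of 41 and 0 of 42 of the type 1 side. Cd226, the activating receptor that competes with TIGIT for its ligands, had log2 ratios of 1.30 (0.59 to 2.01) and 1.10 (0.16 to 2.05). Cd160 and Tnfrsf18 were the 2 lower genes. Tigit itself was found in 0 of 83 and 1 of 69 members, and the exact interval for 0 of 83 cells reaches 4.35%. It was found in 2.86% and 2.79% of CD8+ T cells and 4.67% and 3.75% of NK cells, so a difference of γδ T cells from these was not detectable at this depth.

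The genes with the steepest ratios between the sides, by the rule for named genes, were not limited to known markers. Krt83, a hair keratin, was found in 25 of 36 and 12 of 22 members of the type 17 side and in 1 of 41 and 1 of 42 of the type 1 side, with 58 and 34 UMIs against 1 and 1. Serpinb1a, a protease inhibitor of the type 17 list, and Smox, Prelid2, Bcl2a1a and Crmp1 were also among the 10 highest, together with Cd163l1, Tcrg-V6, Trdv4 and Ccr2. Cd163l1 was used to select and to divide the members, so its ratio was set by the division. The type 1 side led in Ly6c2, a surface antigen of memory-like T cells, with 290 and 225 UMIs against 5 and 0. It also led in Xcl1, a chemokine for cross-presenting dendritic cells, in Ctla2a, Klrc1, Pglyrp1 and the kinase Lck, and in Gzma, Ccl5, Nkg7 and Klrd1, of which Nkg7 and Klrd1 divided the members. NK cell markers (Ncr1, Klrb1c, Klra8 and Klra4) summed to 31 and 26 UMIs on the type 1 side and to 0 UMIs in both libraries on the type 17 side.

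The cytokines themselves separated by side. Il17a was found in 23 of 36 and 7 of 22 members of the type 17 side and in 2 of 41 and 0 of 42 of the type 1 side. Ifng was found in 0 of 36 and 1 of 22 members of the type 17 side and in 10 of 41 and 11 of 42 of the type 1 side. No member held UMIs of both, among 28 and 7 members with Il17a and 11 and 13 with Ifng. Il17f, the partner of Il17a, was found in 2 and 0 members. Areg, a growth factor of tissue repair, and Furin, a protease, were higher on the type 17 side.

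**Figure D3:**
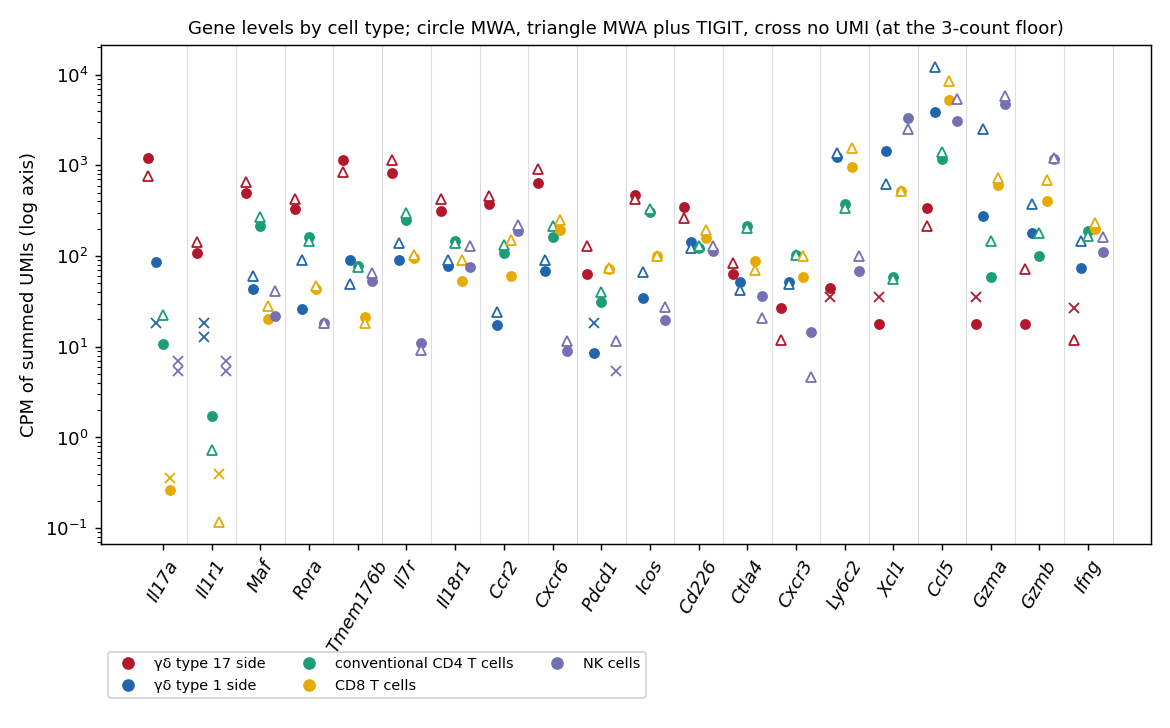
CPM of summed UMIs (y axis, log scale) of 20 genes in both sides of the γδ T cells and in conventional CD4+ T cells, CD8+ T cells and NK cells, with circles for the MWA group, triangles for the combination group and crosses at the 3-count floor where no UMI was found. Il17a and Il1r1 stood above the other cell types on the type 17 side, and Xcl1 of the type 1 side lay between CD8+ T cells and NK cells in both groups.

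γδ T cells were next set against conventional CD4+ T cells, 593 and 615 cells with a Cd4 UMI and no Cd8, Foxp3, Trdc or Cd163l1 UMI. In both libraries 2.26% of 3015 genes were at least 2-fold higher and 2.02% at least 2-fold lower in γδ T cells, which were 68 and 61 genes, or 59 and 65 with TMM factors. Of the type 17 program, 12 of 19 genes were higher and none lower, and of the type 1 program 12 of 22 were higher and 1, Cxcr3, was lower. Il17a stood at 471 and 247 CPM against 10.7 and 22.6 CPM, higher by 5.46 (4.85 to 6.13) and 3.45 (2.92 to 3.97) on the log2 scale. Tmem176b, an ion channel gene of the type 17 list, had log2 ratios of 2.56 and 2.12, and Cd7 of 3.74 and 3.53. Fcer1g, an adaptor of NK and γδ receptors, had 1.99 and 2.80. By the rule for named genes the highest also included the crystallin Cryba4, the NK receptor Klra7 and the adaptor Clnk.

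Among the genes lower than in CD4+ T cells were costimulatory and inhibitory receptors and cell cycle genes. Of the 14 inhibitory and costimulatory receptors measured, 7 were lower and 1, Cd160, was higher. Tnfrsf4 (OX40) stood at 24.8 and 38.6 CPM against 429 and 416 CPM, with log2 ratios of −4.11 (−5.24 to −3.18) and −3.43 (−4.50 to −2.55). Cd28 had log2 ratios of −2.67 and −4.29, Cd5, which dampens receptor signals, of −3.57 and −2.77, and Cd40lg of −2.36 and −4.26. Ctla4 had −1.76 and −1.55. Of 13 cell cycle genes 6 were lower and none higher, among them Top2a with −2.58 (−4.05 to −1.44) and −3.14 (−4.59 to −2.01). Tnfsf11 (RANKL) had 163 and 168 UMIs in CD4+ T cells and none in γδ T cells. Slamf1 and the histone genes Hist1h1b and Hist1h2ab were among the lowest.

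Against CD8+ T cells (1505 and 1684 cells), 2.76% of 2971 genes were higher and 2.12% lower in both libraries. These were 82 and 63 genes, and with TMM factors 63 were higher and 82 lower. The type 17 program separated further, with 15 of 19 genes higher and none lower. Maf had log2 ratios of 3.24 and 3.27. Of 24 genes of the type 1 program 3 were higher, Klrb1c, Cd7 and Txk, and 4 were lower, Ifng, Gzmb, Gzmk and Prf1. Gzmb stood at 121 and 266 CPM against 404 and 686 CPM, and Ifng at 49.6 and 100 CPM against 197 and 229 CPM. The cell cycle list had 8 of 13 genes lower and none higher, and Lag3 was lower at −2.82 and −2.35. The matrix gene Abi3bp, 15 and 13 UMIs against none, and Ifitm1, at −5.25 and −3.48, were named by the rule in the 2 directions. Ikzf2, the factor Helios, had log2 ratios of 1.34 (0.96 to 1.70) and 1.89 (1.45 to 2.31).

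Against NK cells (107 and 80 cells without Cd3 UMIs), 5.08% of 3133 genes were higher and 3.42% lower in both libraries. Of 25 type 1 genes 14 were lower and 1, Ly6c2, was higher. Gzma stood at 182 and 1612 CPM against 4709 and 5790 CPM, Prf1 (perforin) at 16.5 and 30.8 CPM against 234 and 325 CPM, and Gzmc, another granzyme, at 88.2 and 0 CPM against 4067 and 1846 CPM. Eomes and Tbx21, which drive the NK program, were lower, with log2 ratios of −2.01 and −2.98 for Eomes. Of 21 type 17 genes 15 were higher and none lower, and 5 of 9 chemokine and egress receptors were higher, among them Cxcr6 with 4.81 (3.53 to 6.46) and 5.05 (3.78 to 6.71). Il7r stood at 356 and 509 CPM against 10.9 and 9.21 CPM, and Bcl11b, a T lineage factor, had 44 and 30 UMIs against none.

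Between the groups, within γδ T cells, 6.99% of 2791 genes were at least 2-fold higher and 2.15% at least 2-fold lower in the combination group, with a median log2 ratio over all genes of 0.17. Without the 2 Lyz2-rich members the shares were 5.47% and 2.65% of 2759 genes, and the median was 0.15. The split depended on the scaling: 195 genes were higher and 60 lower as given, but 116 higher and 107 lower with TMM factors. Ribosomal protein genes took 409331 and 353201 CPM. Among secreted factors, Il17a and Xcl1 were lower and Gzma and Ccl5 higher in the combination group. Each is given with the same ratio in the other lymphocytes, and with 1 library a group a difference between cell types was not tested.

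Il17a summed to 171 UMIs (471 CPM) in the MWA group and 64 UMIs (247 CPM) in the combination group, with a log2 ratio of −0.93 (−1.37 to −0.51). It was found in 28 of 83 members (33.7%, 23.7 to 44.9) against 7 of 69 (10.1%, 4.18 to 19.8), a difference of −23.6 points (−36.3 to −9.68). Within the type 17 side it was found in 23 of 36 (63.9%) against 7 of 22 (31.8%), a difference of −32.1 points (−55.7 to −3.02). The lower share therefore remained within the side. Thinned to 1000 UMIs per cell, the side held 19 of 36 (52.8%) against 3 of 21 (14.3%) cells with a UMI. Macrophages with a UMI of Il17a were 0.184% and 0.0472%. In the members with Il17a the median was 4.5 and 3 UMIs. The 3 highest members held 26, 16 and 13 UMIs in the combination group, 85.9% of its total, and 17, 17 and 14 in the MWA group, 28.1% of its total. Without the highest member of each library the log2 ratio was −1.54. Without members that held a Trac UMI, which left 23 and 19 members on the type 17 side, the ratio over all γδ T cells was −0.70. CD4+ T cells went the other way, with 25 and 63 UMIs of Il17a in 7 and 8 cells, a log2 ratio of 1.08 (0.39 to 1.81).

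Of the 20 genes of the type 17 program that passed the filter, Il17a among them, 1, Igf1r, was at least 2-fold higher and none was 2-fold lower, with a median log2 ratio of 0.22. Il7r had a log2 ratio of 0.52 (0.16 to 0.88) and Tmem176b of −0.46 (−0.85 to −0.07). Tcrg-V6 had 20 and 18 UMIs. Over all γδ T cells, immediate early genes, which are transcribed within minutes of a stimulus, had 1 of 17 at least 2-fold higher (Dusp2) and none lower. Divided by side after their values were seen, 4 of 16 were at least 2-fold lower on the type 17 side, Fos, Fosb, Egr1 and Zfp36, and 1, Dusp2, was higher, with a median of −0.19. The median over all 1330 genes compared on that side was 0.08. The share of those genes past 2-fold was not counted, so the count of 4 has no background to be read against. The log2 ratio there was −1.62 (−2.47 to −0.83) for Fos, −1.62 (−2.54 to −0.79) for Fosb and −3.05 (−6.19 to −1.03) for Egr1. On the type 1 side 2 of 15 were at least 2-fold higher, Jun and Dusp2, and none was lower, with a median of 0.34. That count has no background share either, and the contrast between the sides was not tested. Fos, Fosb and Egr1 had 0.11, 0.20 and 0.41 on the type 1 side, each with an interval that spans 0.

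On the type 1 side, Gzma (granzyme A) was high in a subset of cells in the combination group. It was found in 18 of 42 members against 4 of 41 in the MWA group, a difference of 33.1 points (12.9 to 50.7). These 18 members held between 6 and 60 UMIs each, whereas in the MWA group 53 of 64 UMIs lay in 1 member. The log2 ratio over all members was 3.15 (2.77 to 3.54), and 3.22 without the Lyz2-rich members. Thinned to 1000 UMIs, 2 of 41 and 18 of 42 members had a UMI. The log2 ratio was 1.29 (1.01 to 1.58) in CD4+ T cells, 0.26 (0.20 to 0.31) in CD8+ T cells and 0.30 (0.22 to 0.38) in NK cells. Macrophages with a UMI of Gzma were 2.28% and 2.31%. The NK markers, 133 and 159 CPM on the type 1 side, did not move by the same factor, and their part in the result was not tested.

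Ccl5, a chemokine that attracts T cells and myeloid cells, was found in 38 of 41 and 42 of 42 members of the type 1 side. The members of the MWA group held from 0 to 114 UMIs with a median of 21, and those of the combination group from 4 to 190 with a median of 45, so the ranges overlapped. Over all members it stood at 2613 and 7709 CPM, and the log2 ratio was 1.56 (1.45 to 1.67), against 0.27 in CD4+ T cells, 0.70 in CD8+ T cells and 0.80 in NK cells. Ccl5 was found in 27.3% and 30.3% of macrophages. Ccl4, a chemokine, had 28 and 80 UMIs, or 77.2 and 308.5 CPM, but it was found in 16 and 16 members, and the 3 highest held 46.4% and 52.5% of its UMIs.

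Xcl1 was lower on the same side. It was found in 34 of 41 and 18 of 42 members of the type 1 side, a difference of −40.1 points (−58.2 to −18.0). The median was 4 UMIs and 0 UMIs, and the highest members held 38 and 22. Over all members the log2 ratio was −1.21 (−1.54 to −0.89), against −0.06 (−0.40 to 0.28) in CD4+ T cells, 0.01 (−0.06 to 0.07) in CD8+ T cells and −0.40 (−0.51 to −0.29) in NK cells. Thinned to 1000 UMIs, 27 of 41 and 8 of 42 members had a UMI, and macrophages with an Xcl1 UMI were 2.26% and 1.08%. Without barcodes over 5000 UMIs the ratio of Xcl1 was −0.64.

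Of the type 1 program, 4 of 20 genes were at least 2-fold higher in the combination group, Ifng, Gzma, Gzmb and Ccl5, and 2 were lower, Klrc2 and Xcl1. Ifng passed the 50 CPM minimum through the combination group alone and Klrc2 through the MWA group alone, so the filter favored the direction of both. Ifng was found in 11 of 83 and 13 of 69 members, with a log2 ratio of 1.01 (0.09 to 1.97), and the shares differed by 5.59 points (−6.89 to 18.5), within counting error. Gzmb had 44 and 69 UMIs and a log2 ratio of 1.13 (0.57 to 1.71), against 0.84 in CD4+ T cells and 0.76 (0.70 to 0.83) in CD8+ T cells. With TMM scaling the log2 ratios of Ifng and Gzmb were 0.85 and 0.97, both under the 2-fold limit. Without members that held a Trac UMI they were 0.53 and 0.77, Gzmb was 0.86 with fewer than 3 C1q UMIs and Ifng 0.89 without called doublets, whereas both were higher, at 2.12 for Ifng and 1.53 for Gzmb, without barcodes over 5000 UMIs. Gzmc had 32 and 0 UMIs and was lower in NK cells (−1.14, −1.26 to −1.02) and CD8+ T cells (65.6 and 16.4 CPM) as well. The 32 UMIs of Gzmc came from 6 members, with 15 in the highest, and without barcodes over 5000 UMIs its log2 ratio was −0.29.

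**Figure D4:**
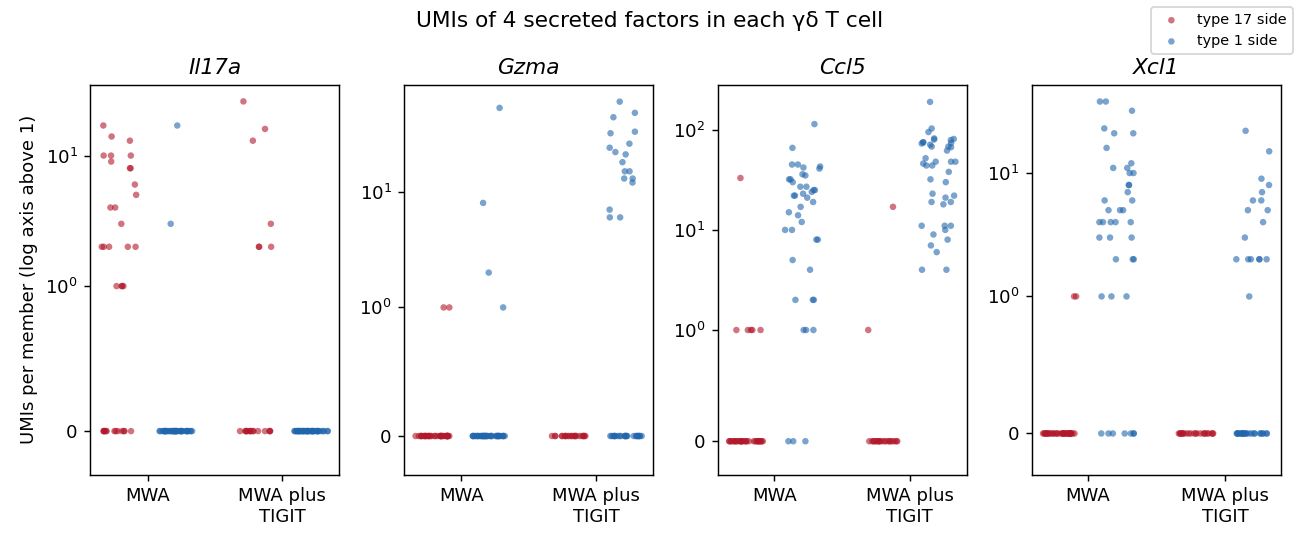
UMIs per member (y axis, linear up to 1 and log above) of Il17a, Gzma, Ccl5 and Xcl1 on the type 17 side (red) and the type 1 side (blue) in both groups, with the unresolved members left out. Il17a was found in 23 of 36 and 7 of 22 members of the type 17 side, Gzma in 4 of 41 and 18 of 42 and Xcl1 in 34 of 41 and 18 of 42 of the type 1 side, and the median of Ccl5 there was 21 and 45 UMIs.

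Among cytokine receptors, 2 of 13 were at least 2-fold higher, Il2ra and Il17ra. Il2ra (CD25) had 20 and 38 UMIs and a log2 ratio of 1.41 (0.59 to 2.27), against 0.02 in CD4+ T cells and −0.02 in CD8+ T cells, and on the type 1 side 1 UMI stood against 13, of which 9 lay in 1 member. None of 10 inhibitory and costimulatory receptors and none of 6 genes of the γδ receptor passed 2-fold in either direction. Of 6 cell cycle genes 2 were lower, Mcm5 (19 and 3 UMIs) and Stmn1 (24 and 7 UMIs). Tnfsf8 (CD30 ligand) was found in 13 of 83 and 1 of 69 members, a difference of −14.2 points (−23.9 to −4.72). Mcm5, Stmn1 and Tnfsf8 passed the 50 CPM minimum through the MWA group alone, and Il17ra through the combination group alone. The filter favored the direction of these ratios, so they are no support for a group difference.

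The highest ratios of all came from single members. Of the 10 genes with the highest ratio, Acod1, Rsad2, AA467197, Cmpk2, Ifit1, Ifi204, Ms4a6c and Tgm2 had most of their UMIs in the first Lyz2-rich member, for example 75 of 76 UMIs of Rsad2 and 43 of 45 of Acod1, and Terf2ip had 25 of 27 in another member. Only Gzma among the 10 was spread over 19 members. The type I interferon list had 9 of 13 genes at least 2-fold higher with the Lyz2-rich members and 0 of 5 without them, when 1, Isg20, was lower. Isg15 went from a log2 ratio of 2.16 to −1.08. The 10 lowest were Car2, Tnfsf8, Gzmc, Rnf4, Mgat5, Mcm5, Pola2, Camk2n1, Ptrhd1 and Pop7, each with 19 to 32 UMIs in the MWA group. All 10 passed the 50 CPM minimum through the MWA group alone. Of these, Rnf4, Mgat5, Pola2, Camk2n1, Ptrhd1 and Pop7 were found in 16 to 22 members of the MWA group with at most 3 UMIs each.

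**Figure D5:**
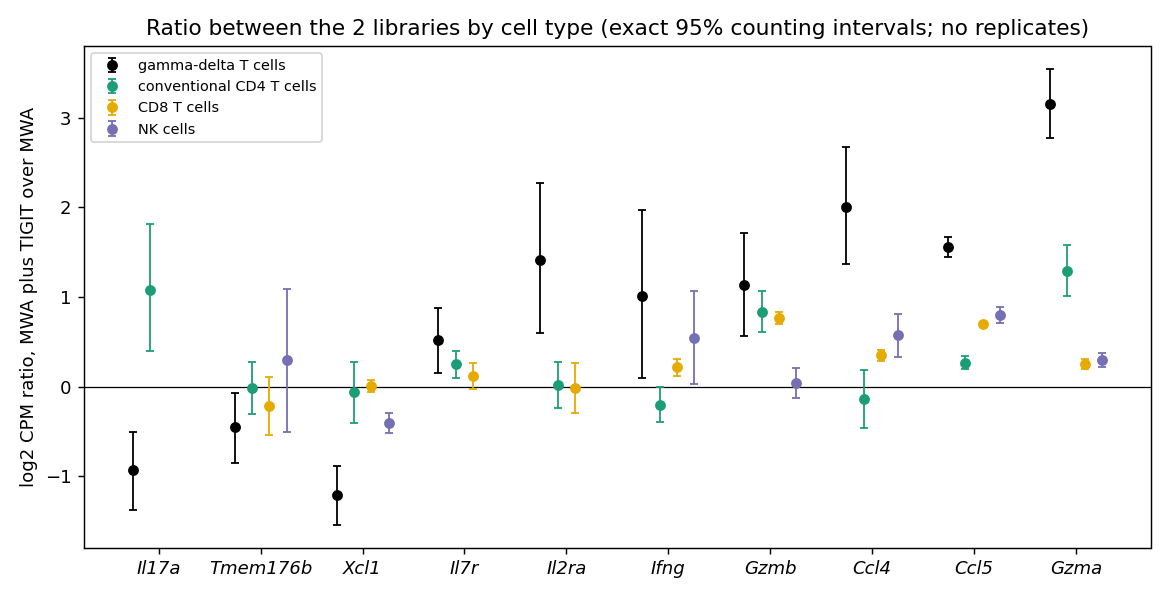
The log2 ratio of CPM, MWA plus TIGIT over MWA (y axis), of 10 genes in γδ T cells (black) and in conventional CD4+ T cells, CD8+ T cells and NK cells, with exact 95% counting intervals and values based on under 20 UMIs left out. Gzma, Ccl5 and Ccl4 were higher and Xcl1 lower in γδ T cells by more than in the other cell types drawn, while Il17a had opposite signs in γδ T cells (−0.93) and CD4+ T cells (1.08).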

How the data were processed

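CD45+ cells of the non-ablated left tumor were measured in 2 libraries, 1 for MWA alone and 1 for MWA plus TIGIT, as assigned by the sample labels. The authors aligned 3′ single-cell reads to GRCm38 (mm10) and deposited raw UMI counts per barcode for 32285 genes, not normalized. The matrix header names Cell Ranger 4.0.0 and the submitters' processing notes 6.1.1. The libraries held 10217 and 10190 barcodes and 66152465 and 78751205 UMIs.

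Barcodes under 200 genes or over 10% mitochondrial UMIs were left out, and the kept ones had medians of 5747 and 6838 UMIs. Doublets, called against simulated ones at 0.8% per 1000 barcodes (806 and 786 barcodes), were kept in the main values and left out in an alternative. The members, the dividing genes and the lists were chosen with earlier results of these data known. UMIs were summed per cell type and library and given as CPM. Genes with at least 50 CPM in 1 sum and 20 UMIs in all were compared, and a log2 ratio of at least 1 or at most −1, in both libraries for comparisons of cell types, was counted. A sum of 0 was set to 3 counts. Shares have exact binomial, sums Poisson and ratios conditional binomial intervals, and differences of shares combine the binomial intervals. No test was run, since there was 1 library per group. For shares, cells were also thinned to 1000 UMIs. Named genes were those of the lists and, per comparison, the 10 highest and 10 lowest ratios, without mitochondrial, ribosomal, Gm and Rik genes. Between cell types or sides these were ranked by the smaller of the 2 libraries' ratios.

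Trgv2, the cell shares of Krt83, H2-Aa by member, the immediate early genes by side, and the alternatives without Lyz2-rich members or without the highest member were chosen after the data had been seen. The scripts, in Python 3.11.15 with numpy 2.4.6 and scipy 1.17.1, were tested on simulated data. TMM factors came from edgeR 4.0.16 in R 4.3.3. One gene of the type 17 dividing set is not reported here.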

Additional observations from a re-analysis of the deposited data

Results flagged for a closer look

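In each of the following genes the log2 ratio in γδ T cells (MWA plus TIGIT over MWA) had the opposite sign to that in another cell type, with both counting intervals away from 0. None of these differences was tested, since there was 1 library per group. The intervals take each UMI as independent, so they are too narrow where few cells hold most UMIs. For Il17a the 3 highest members held 85.9% of the UMIs of γδ T cells in the combination group. The shares of γδ T cells with an Ifng UMI differed within counting error.

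Il17a had −0.93 (−1.37 to −0.51) in γδ T cells and 1.08 (0.39 to 1.81) in conventional CD4+ T cells. In γδ T cells it had −0.70 without members that held a Trac UMI and −0.82 without the Lyz2-rich members. Ifng had 1.01 (0.09 to 1.97) against −0.20 (−0.39 to −0.01) in CD4+ T cells, 1.13 without those members and 0.53 without members that held a Trac UMI. Tnfsf8, the CD30 ligand, had −3.84 (−9.21 to −1.19) against 0.40 (0.18 to 0.61) in CD4+ T cells, and −3.73 without the Lyz2-rich members. Pola2, a subunit of DNA polymerase alpha, had −2.04 (−4.03 to −0.49) against 0.82 in CD4+ T cells, and Mcm5, part of the replicative helicase, had −2.18 (−4.58 to −0.41) against 0.31 (0.11 to 0.51) in CD8+ T cells. Pola2 and Mcm5 had −2.34 and −2.07 without the Lyz2-rich members. Tnfsf8, Pola2 and Mcm5 passed the 50 CPM minimum through the MWA group alone. Ifng passed it through the combination group alone, as did the next 2 genes. For these genes the filter itself favored the direction of the ratio, so their intervals are no support for a group difference.

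Rsad2, an interferon-induced gene, had 4.73 (3.32 to 6.64) against −0.84 (−1.34 to −0.35) in CD4+ T cells, and −1.40 without the Lyz2-rich members. AA467197 had 4.44 (3.26 to 5.92) against −0.19 (−0.36 to −0.02) in CD8+ T cells, and 0.60 without them.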

How the results depend on the processing

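No paired analysis was possible because each group had 1 library, and for the same reason no replicate could be left out. The share of γδ T cells in the MWA group was 0.598% without members that held a Trac UMI. The type 17 side then differed between the groups by −4.40 points (−22.5 to 14.1). With barcodes over 5000 UMIs left out, the shares were 1.34% and 1.48%, the difference was 0.142 points (−0.386 to 0.685), and the type 17 side held 57.6% of members in the MWA group, with a difference between the groups of −23.7 points (−41.3 to −4.29). The type 17 side held 19.3% and 14.5% without Cd163l1 in the dividing set, and 12.0% and 11.9% with members thinned to 1000 UMIs, when the genes that differed between the sides numbered 189 against 362. Without the CPM minimum the genes past 2-fold numbered 500, 1589 and 445 against CD4+ T, CD8+ T and NK cells (129, 145 and 266 with it), and a minimum of 100 CPM gave 65, 75 and 139, and 61 between the groups (255 at 50 CPM). Rsad2 reversed to −1.49 with at least 3 gate UMIs, −1.67 with fewer than 3 C1q UMIs, −1.88 without barcodes over 5000 UMIs and −1.40 without Lyz2-rich members. Ifit1 reversed to −0.49, −0.67 and −0.40 under the first 2 and the last of these, and Areg to 0.054 with the mean CPM per cell, and the cause was not tested. Of the other interferon genes past 2-fold, Isg15, Irf7, Ifit2 and Slfn5 reversed to −1.08, −0.80, −0.14 and −0.14 without Lyz2-rich members. Of 120 values of shares and counts, 103 were labeled unchanged, but the label was loose. Shares and differences labeled so lay within the counting interval of the main value. They included type 17 differences of −4.40 and −23.7 points against −11.5, although −23.7 exceeded counting error. Counts of genes were compared as totals only. Between the groups, 116 higher and 107 lower with TMM factors was thus labeled unchanged against 195 and 60. The number of unchanged values is therefore no measure of stability. For the genes with the highest and lowest ratios and a few secreted factors and receptors named in the text, not for all listed genes, 1280 of 1333 values kept their direction and side of the limit. The 2 changes of the CPM minimum, with 110 values each, could not alter the ratio of a gene, so their agreement was fixed in advance. Genes used to select the cells, such as Trdc and Cd4, are also among the values. A further 43 gene values were no longer past 2-fold, and Il17a passed it, at −1.10 with TMM factors and −1.15 with the mean CPM per cell. With 58 members of the type 17 side and 83 of the type 1 side in all, rare transcripts carry wide counting intervals.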
